A study of Arabidopsis thaliana with 6 samples.

Results

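The genes described here are 10 genes of salicylate signalling in Arabidopsis thaliana, taken by locus identifier from a deposited table of 33602 genes; all 10 were found. They are the EDS1 family (EDS1, EDS1B, PAD4 and SAG101), the salicylate receptors NPR1, NPR3 and NPR4, the transcription factors SARD1 and CBP60G, and NIMIN1, which binds NPR1. The series compared seedlings of the Columbia (Col) ecotype on 2 nitrogen sources, and asks which transcripts respond to glutamine. All seedlings grew for 12 days on agar with a nitrogen-free MS-modified salt mixture and 0.5% sucrose, with 16 h of light and 8 h of dark at 22 °C. Nitrogen was supplied as NH4NO3 at 5 mM to 1 group of 3 samples, and as the amino acid glutamine (Gln), also at 5 mM, to the other group of 3. No mutant, transgene or pathogen treatment is named in the labels. Because the Gln medium held no NH4NO3, the presence of Gln and the absence of nitrate and ammonium cannot be told apart.

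Salicylate is the hormone of defence against pathogens that feed on living plant tissue. EDS1 is a lipase-like protein that forms separate complexes with PAD4 and with SAG101, and these relay signals from immune receptors inside the cell, PAD4 complexes to ADR1-type helper receptors and SAG101 complexes to NRG1-type ones. SARD1 and CBP60G switch on genes of salicylate synthesis such as ICS1. NPR1, NPR3 and NPR4 bind salicylate; NPR1 acts with TGA transcription factors to activate defence genes, whereas NPR3 and NPR4 act as repressors of the same genes. NIMIN proteins bind NPR1 and dampen its output.

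EDS1 and EDS1B are tandem copies, so the sequences that set them apart are shown first. EDS1 (AT3G48090) lies on chromosome 3 at 17755329 to 17758147 and EDS1B (AT3G48080) at 17752463 to 17755190, both on the minus strand and 138 bases apart, in the RefSeq annotation of TAIR10.1 that all positions here use. Their coding sequences, of 1872 and 1890 bases, were identical at 84.0% of 1859 aligned bases. The first 120 coding bases differ at 24 positions, which are in capitals, 5′ to 3′ on the coding strand.
EDS1, chr3:17757573-17757692, minus strand: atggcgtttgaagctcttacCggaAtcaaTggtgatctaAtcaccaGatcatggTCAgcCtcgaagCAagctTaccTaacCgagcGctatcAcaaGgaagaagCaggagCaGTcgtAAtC
EDS1B, chr3:17755026-17755145, minus strand: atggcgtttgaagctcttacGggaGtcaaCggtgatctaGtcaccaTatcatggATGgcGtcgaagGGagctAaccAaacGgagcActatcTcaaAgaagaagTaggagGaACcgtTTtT
The longest identical run in the coding alignment was 44 bases, and 0.919% of the 50-base windows of the EDS1 transcript recur exactly in EDS1B. No other pair of the 10 genes shared such a window. The deposited multi-read ratio, which by its name concerns reads with several possible positions, was 0 for all 10.

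The stretch just before each gene was read from the TAIR10.1 genome, because most of these genes rose together. Searched on both strands over 250 bases were the W box (TTGACC or TTGACT), bound by WRKY factors, the TGA core (TGACG), the core of the element bound by SARD1 and CBP60G (GAAATT) and a core bound by CAMTA factors (ACGCG). Shown are 4 of the 5 windows that hold a match, with the matches in capitals, 5′ to 3′ on the strand of the gene; NPR3, with 1 TGA core, is left out.
SARD1, chr1:27749249-27749498, minus strand: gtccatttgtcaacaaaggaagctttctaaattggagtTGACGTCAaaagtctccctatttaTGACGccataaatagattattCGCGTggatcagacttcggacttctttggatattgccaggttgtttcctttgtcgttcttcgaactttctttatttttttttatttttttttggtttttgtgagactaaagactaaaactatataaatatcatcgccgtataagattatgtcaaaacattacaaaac
NPR4, chr4:10698812-10699061, minus strand: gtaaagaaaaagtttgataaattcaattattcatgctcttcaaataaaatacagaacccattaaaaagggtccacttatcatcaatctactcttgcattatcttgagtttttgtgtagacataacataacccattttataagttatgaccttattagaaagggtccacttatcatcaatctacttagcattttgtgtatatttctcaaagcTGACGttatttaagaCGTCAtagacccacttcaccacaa
EDS1, chr3:17758148-17758397, minus strand: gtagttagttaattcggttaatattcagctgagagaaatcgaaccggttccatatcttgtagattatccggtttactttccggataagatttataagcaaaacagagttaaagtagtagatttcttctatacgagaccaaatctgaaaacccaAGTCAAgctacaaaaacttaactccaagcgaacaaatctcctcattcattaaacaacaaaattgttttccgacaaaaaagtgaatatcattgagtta
NIMIN1, chr1:498540-498789, minus strand: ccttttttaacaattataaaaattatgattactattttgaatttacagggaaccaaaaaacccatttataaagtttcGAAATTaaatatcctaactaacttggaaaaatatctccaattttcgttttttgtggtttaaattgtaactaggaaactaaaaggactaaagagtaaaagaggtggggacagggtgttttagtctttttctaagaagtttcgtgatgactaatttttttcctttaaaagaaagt
SARD1 held 3 TGA core matches, of which 2 overlap on opposite strands, and 1 CAMTA core match. NPR4 held 2 TGA core matches, at positions -39 to -35 and -24 to -20 from the gene start, and NPR3 held 1. The TGA core was thus in 3 of the 10 windows, against 18.6% of the 27443 windows of all protein-coding genes. Of those windows, 0.583% held 3 or more matches. That cut-off equals the number found in SARD1, so the share is not a test of SARD1. A W box was in 1 of 10 (EDS1), against 28.4% of all windows, GAAATT in 1 (NIMIN1) against 32.2%, and ACGCG in 1 (SARD1) against 6.87%. A match is a string of letters and not a site shown to be bound, and only 250 bases were searched. EDS1B and SAG101 have only 138 and 114 bases of this window free of the neighbouring gene.

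**Figure D1:**
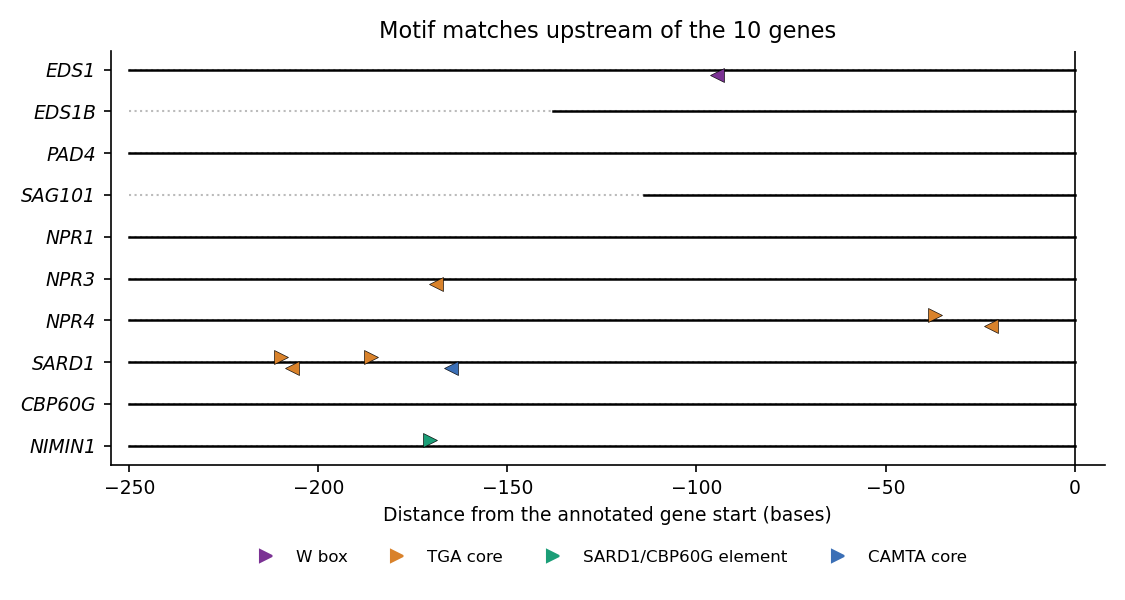
Positions of motif matches in the 250 bases before the annotated start of each gene, in bases from the start. Triangles point right for the motif as spelled and left for its reverse complement, and dotted lines are bases inside the neighbouring gene. SARD1 has 3 TGA core matches and 1 CAMTA core match, and 5 of the genes have none of the motifs.

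The libraries held 28654470 to 35421767 reads in genes, as implied by the deposited values. Values are RPKM, in which read numbers are divided by the length of the gene and the size of the library, so levels of different genes can be compared per length. In NH4NO3 replicate 2 the read number was even in 44.9% of genes with 1 to 100 reads, against 57.8% to 60.9% in the other 5 libraries. The cause was not tested, and the numbers of genes called in the table, among the 10 genes and in each list were also computed without that library. Counting errors given below take the reads of a library as independent, which was not tested either. The labels do not say whether replicates came from separate plates, and the spread behind each p-value may therefore be technical. In whole seedlings, fewer cells of a type and less RNA per cell cannot be told apart.

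Of the 10 genes, 9 rose on Gln and NPR3 did not pass the test. The increases ran from 1.27-fold for NPR1 to 3.14-fold for NIMIN1, as ratios of mean RPKM. The test was limma on log2(RPKM + 1) over the 19284 genes whose mean reached 1 RPKM, and a gene was called at a Benjamini-Hochberg adjusted p under 0.05. All differences below are Gln minus NH4NO3 on that scale, which understates the change of genes at low levels, and each group has n = 3. All 10 genes passed the filter on low values. Of all genes tested, 41.2% were called, 21.4% higher and 19.8% lower, and the 10 genes split 9 to 0. The median difference of the 10 genes was 0.67, against -0.02 over all genes tested. EDS1B and NIMIN1 were called with a difference of at least 1, as were 3.13% of all genes tested. The values of the groups did not overlap for the same 9 genes, each higher on Gln, against 26.5% of all genes tested. None was lower with limma at an unadjusted p under 0.05 (24.7% of all genes) or with voom weights on the implied reads (21.3%). Without NH4NO3 replicate 2 the count was again 9 higher and 0 lower.

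**Figure D2:**
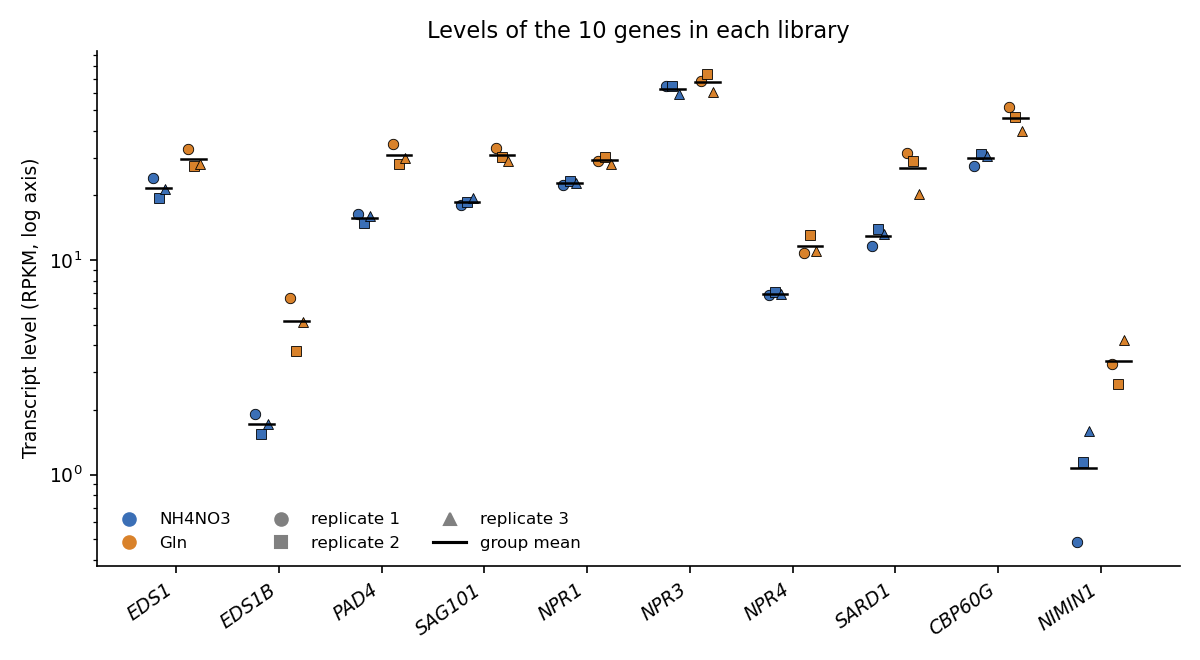
RPKM of the 10 genes on a log axis, 1 symbol per library, with NH4NO3 in blue and Gln in orange and black bars at the group means. The 3 Gln values lie above all NH4NO3 values for each gene except NPR3, whose groups overlap.

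EDS1, the hub of the lipase-like family, had the smallest difference of its 4 genes. It was at 24.2, 19.4 and 21.5 RPKM in NH4NO3 replicates 1 to 3 and at 32.7, 27.5 and 28.0 RPKM in Gln replicates 1 to 3. The groups came close, with the lowest Gln value only a little above the highest NH4NO3 value. The difference was 0.43 ± 0.10 (SE; limma adjusted p = 0.0065). It did not pass with no filter on low values (adjusted p = 0.052, the highest of a range from 0.0024 over all alternatives).

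EDS1B, the tandem copy, rose from a low level. Its values were 1.91, 1.55 and 1.72 RPKM in NH4NO3 and 6.63, 3.77 and 5.13 RPKM in Gln, where replicate 1 was highest and replicate 2 lowest. These rest on 102 to 130 reads per NH4NO3 library and 290 to 422 per Gln library. The difference was 1.16 ± 0.16 (limma adjusted p = 0.00041), and the mean ratio was 3.0. Over the alternatives the difference of EDS1B ran from 0.59 with a pseudocount of 5 to 1.53 with voom, with an adjusted p of up to 0.017. In TAIR10.1 the exons of EDS1B share 503 bases with AT3G48070 on the other strand, and the library kit named in the labels does not mark strand. That neighbour was at 16.5 ± 0.851 RPKM (mean ± SD) in NH4NO3 and 16.9 ± 1.17 in Gln, a difference of 0.03 ± 0.08 (adjusted p = 0.78). The deposited length of EDS1B is 2101 bases against 2576 in TAIR10.1, so the model that was counted was shorter. Whether that model overlapped the neighbour is not given in the sources used here.

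PAD4 (AT3G52430, chromosome 3, 19431095 to 19434450), the partner through which EDS1 acts with ADR1-type helpers, was at 16.4, 14.8 and 16.0 RPKM in NH4NO3 and 34.8, 28.1 and 29.8 RPKM in Gln. The Gln values were all well clear of the NH4NO3 values, at a mean ratio of 1.96 and a difference of 0.93 ± 0.09 (limma adjusted p = 4.4e-05). SAG101 (AT5G14930, chromosome 5, 4828499 to 4830982), a partner first found as a senescence-associated gene, was at 18.1, 18.5 and 19.5 RPKM in NH4NO3 and 33.3, 30.3 and 28.9 RPKM in Gln. It rose by 0.69 ± 0.07 (limma adjusted p = 8.5e-05). PAD4 and SAG101 thus ended at nearly the same mean level on Gln, 30.9 ± 3.51 and 30.8 ± 2.23 RPKM (SD).

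The receptors differed in how far they moved. NPR1 (AT1G64280, chromosome 1, 23852748 to 23855658), the co-activator, was at 22.4, 23.4 and 22.9 RPKM in NH4NO3 and 29.0, 30.2 and 28.1 RPKM in Gln. Its increase was small, with a mean ratio of 1.27, yet larger than the narrow spread of either group (difference 0.33 ± 0.06, limma adjusted p = 0.0027). In TAIR10.1 the exons of NPR1 share 214 bases with AT1G08667 on the other strand, for which no value was used here. NPR4 (AT4G19660, chromosome 4, 10696266 to 10698811), a repressor that binds salicylate tightly, was at 6.89, 7.10 and 6.91 RPKM in NH4NO3 and 10.8, 13 and 11 RPKM in Gln. It rose by 0.66 ± 0.09 (limma adjusted p = 0.00034), at a mean ratio of 1.67. The deposited length of NPR4 is 1.725 kb, shorter than its longest coding sequence in TAIR10.1, of 1806 bases. The model that was counted was thus shorter, and levels of NPR4 against other genes rest on that model. NPR3 (AT5G45110, chromosome 5, 18228768 to 18231588), the other repressor and the most abundant of the 10 genes, was at 64.4, 64.8 and 59.4 RPKM in NH4NO3 and 68.2, 73.4 and 60.3 RPKM in Gln. Gln replicate 3 fell within the NH4NO3 range. The difference of NPR3 was 0.09 ± 0.08 (limma adjusted p = 0.384). Its 95% interval ran from -0.09 to 0.28, so changes within that range remain possible.

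Both transcription factors of the CBP60 family rose. SARD1 (AT1G73805, chromosome 1, 27744790 to 27749248), which does not bind calmodulin, was at 11.6, 13.9 and 13.3 RPKM in NH4NO3 and 31.5, 28.9 and 20.3 RPKM in Gln. All Gln values were above the NH4NO3 values, and Gln replicate 3 was the lowest of them. The difference was 0.98 ± 0.14 (limma adjusted p = 0.00056), at a mean ratio of 2.08. Exons of SARD1 share 441 bases with AT1G73790 on the other strand in TAIR10.1, where the exon length of SARD1 is 2397 bases against a deposited 1690. AT1G73790 was at 15.9 ± 2.02 RPKM in NH4NO3 and 16.7 ± 1.73 in Gln (SD), a difference of 0.06 ± 0.10 (adjusted p = 0.64). CBP60G (AT5G26920, chromosome 5, 9475679 to 9478777), which binds calmodulin, was at 27.5, 31.3 and 30.5 RPKM in NH4NO3 and 51.5, 46.4 and 39.9 RPKM in Gln. The Gln values were again all higher, with replicate 3 the lowest (difference 0.60 ± 0.10, limma adjusted p = 0.00093).

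NIMIN1 (AT1G02450, chromosome 1, 497917 to 498539, a single exon) had the lowest level in both groups. It was at 0.483, 1.14 and 1.59 RPKM in NH4NO3 and at 3.26, 2.65 and 4.22 RPKM in Gln. These are few reads, 8, 19 and 24 in NH4NO3 against 53, 52 and 77 in Gln. The 95% exact Poisson interval of the 8 reads in NH4NO3 replicate 1 runs from 3.45 to 15.8 reads and covers counting error only. It takes the reads as independent, although 60.3% of the read numbers from 1 to 100 were even in that library. The groups did not overlap, the NH4NO3 values spread more than 3-fold, and the difference was 1.10 ± 0.21 (limma adjusted p = 0.0024). For NIMIN1 it ran from 0.46 with a pseudocount of 5 to 1.81 with voom, with an adjusted p of up to 0.043 over the alternatives.

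On NH4NO3 the order of mean levels was NPR3, CBP60G, NPR1, EDS1, SAG101, PAD4, SARD1, NPR4, EDS1B and NIMIN1. The ranges of neighbours in that order overlapped for NPR1 with EDS1, EDS1 with SAG101 and EDS1B with NIMIN1. On Gln the order began with NPR3 and CBP60G, followed by PAD4, SAG101, EDS1, NPR1 and SARD1, of which each overlapped the next. NPR4, EDS1B and NIMIN1 again came last. PAD4, 6th in NH4NO3, was 3rd in Gln, and the middle of the ranking was narrower on Gln, with means from 26.9 RPKM for SARD1 to 30.9 RPKM for PAD4.

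Ratios between related genes were compared within each library, where scaling between libraries drops out apart from the pseudocount of 1 used in the test. EDS1B was at 0.0790, 0.0799 and 0.0801 of the EDS1 level in NH4NO3 and at 0.203, 0.137 and 0.183 in Gln. The 3 NH4NO3 ratios lie closer together than the counting error of EDS1B. For independent reads that error is 8.77% to 9.90% of its reads per NH4NO3 library. SARD1 gained on CBP60G, with CBP60G at 2.37, 2.25 and 2.30 times the SARD1 level in NH4NO3 and 1.63, 1.61 and 1.96 times in Gln. SAG101 went from 1.10, 1.25 and 1.22 times the PAD4 level in NH4NO3 to 0.956, 1.08 and 0.972 times in Gln. NPR3 fell against NPR1, from 2.88, 2.77 and 2.59 times its level to 2.35, 2.43 and 2.15 times. NPR4 went the other way, from 0.308, 0.303 and 0.301 of the NPR1 level to 0.374, 0.431 and 0.391. The groups did not overlap for any of the 5 ratios. That share was not computed for other gene pairs. Of single genes tested, 26.5% lay without overlap higher on Gln and 27.1% lower. On the log2(RPKM + 1) scale the differences were 0.73 ± 0.14 (SE) for EDS1B to EDS1, -0.38 ± 0.09 for CBP60G to SARD1, -0.24 ± 0.08 for SAG101 to PAD4, -0.24 ± 0.07 for NPR3 to NPR1 and 0.33 ± 0.06 for NPR4 to NPR1. A 2-sided exact permutation test gave p = 0.1 for each, and 0.1 after Benjamini-Hochberg adjustment over the 5 ratios. With 3 samples against 3 that is the smallest p possible, so these differences could not pass the threshold. For EDS1B to EDS1 the difference was 0.22 with a pseudocount of 5 and 0.99 with 0.25.

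**Figure D3:**
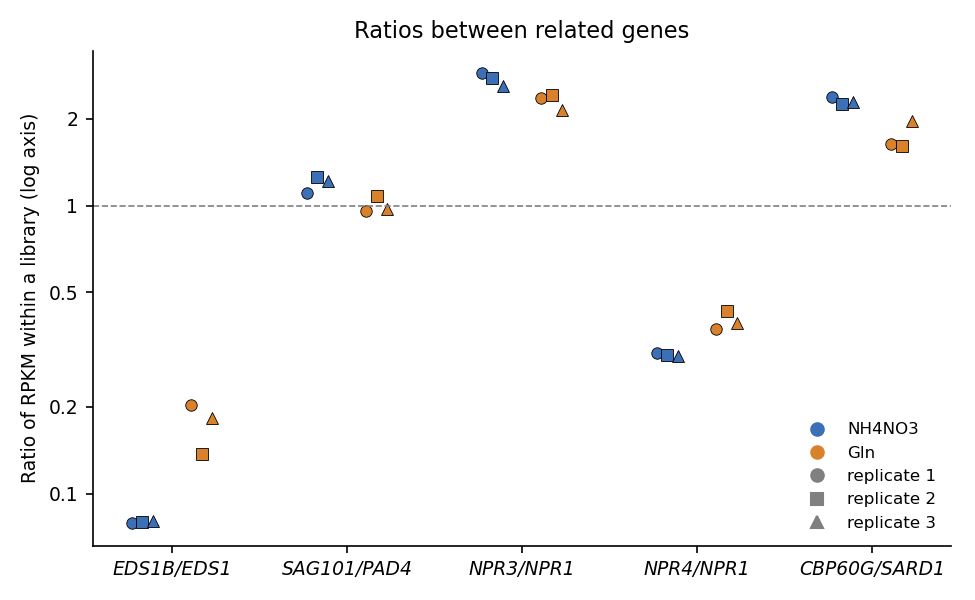
Ratios of RPKM between related genes within each library, on a log axis, with a dashed line at 1. EDS1B/EDS1 and NPR4/NPR1 are higher in the 3 Gln libraries, and the other 3 ratios are lower, with no overlap. The share of other gene pairs without overlap was not computed.

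Within the Gln group the genes did not all follow the same library. Gln replicate 1 was highest for 6 of the 10 genes, the 4 of the EDS1 family with SARD1 and CBP60G. Replicate 2 was highest for the 3 NPR genes and replicate 3 for NIMIN1. Gln replicate 3 was the lowest for 5 of the 10. Among all genes called higher, 40.1% were highest in Gln replicate 1 and 38.2% were lowest in Gln replicate 3. ICS1, the salicylate synthesis gene that SARD1 and CBP60G activate, was at 21.1, 16.2 and 14.1 RPKM in Gln replicates 1 to 3. It was also highest in replicate 1, as were 59.3% of the genes called higher in the pathway lists below. In NH4NO3 replicates 1 to 3 it was at 7.69, 6.91 and 8.16 RPKM. ICS1 was thus lowest in NH4NO3 replicate 2, where SARD1 and CBP60G were highest. These ranks rest on single libraries, and whether ICS1 followed SARD1 and CBP60G was not tested.

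Profiles were compared with that of EDS1B, which had the largest fitted difference of the 10 genes at the pseudocount of 1 used here. NIMIN1 was ahead with a pseudocount of 0.25, with voom, without NH4NO3 replicate 2 or 3 and without Gln replicate 1. SARD1 was ahead without Gln replicate 3, and SARD1, PAD4 and SAG101 were ahead with a pseudocount of 5. The profiles closest to EDS1B were those of AT5G17380, PNG1 (a peptide N-glycanase) and AT5G51260. Pearson's r was 0.999, 0.998 and 0.998 over the 6 libraries, on log2(RPKM + 1). This is a description of 2 groups of 3 libraries, in which 1893 of 13981 genes reached an r of at least 0.9.

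Other genes of the pathway were taken from 11 lists with 57 loci, of which 51 had a mean of at least 1 RPKM. Of these, 27 rose, 4 fell and 20 did not pass, against 21.4% higher and 19.8% lower over all genes tested. The median difference was 0.30.

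Among helper receptors of EDS1 complexes, 1 of 5 rose, 1 fell and 3 did not pass. ADR1-L2 fell from 40.9 ± 1.34 to 27.4 ± 1.54 RPKM (mean ± SD, n = 3), a difference of -0.56 ± 0.07 (SE; limma adjusted p = 0.00018), and the groups did not overlap. ADR1 and ADR1-L1 were at 9.96 and 61.2 RPKM in NH4NO3 and 8.94 and 56.6 RPKM in Gln (adjusted p = 0.188 and 0.199). AT5G66910, annotated as a CC-NBS-LRR protein, rose from 6.46 ± 0.405 to 8.09 ± 0.225 RPKM. Its adjusted p of 0.0184 became 0.057 without NH4NO3 replicate 2 and 0.063 without NH4NO3 replicate 3. AT5G66900, the neighbouring gene of the same annotation, was at 20.2 and 21.1 RPKM (adjusted p = 0.567).

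Of the other NPR family genes, AT4G26120, annotated as an ankyrin repeat and BTB/POZ domain protein, rose from 3.45 ± 0.362 to 6.26 ± 0.753 RPKM (difference 0.71 ± 0.11, limma adjusted p = 0.00073). BOP2, a regulator of leaf patterning, fell from 3.48 ± 0.584 to 2.07 ± 0.0913 RPKM, and its close relative BOP1 was at 0.398 and 0.313 RPKM, below the filter. BOP2 overlaps AT2G41375 on the other strand over 607 bases. NIMIN2, another NPR1-binding protein, rose from 14.5, 13.8 and 15.7 RPKM to 50.9, 47.0 and 52.9 RPKM. The difference of NIMIN2 was 1.71 ± 0.08 (limma adjusted p = 5.6e-07). NIMIN3 was at 25.4 ± 1.66 and 27.0 ± 1.42 RPKM and did not pass (adjusted p = 0.396).

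Of 9 TGA factors, 2 rose, 1 fell and 6 did not pass. TGA3 rose from 23.4 ± 0.944 to 33.3 ± 0.929 RPKM (limma adjusted p = 0.00031). TGA10 rose by 0.30 ± 0.10 and TGA4 fell by 0.31 on the log2 scale. TGA10 lost its call without any of 5 single libraries (adjusted p up to 0.12) and with no filter on low values (0.079), and TGA4 without NH4NO3 replicate 2 (0.066). Of 6 other CBP60 genes, AT4G31000 rose from 20.2 ± 2.28 to 27.9 ± 4.49 RPKM and the other 5 did not pass. Its adjusted p of 0.0154 became 0.064 without NH4NO3 replicate 3, 0.057 without Gln replicate 2 and 0.104 when genes at low levels were kept.

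Of the CAMTA factors, of which CAMTA3 is known to repress EDS1, 1 of 3 fell. CAMTA2 fell from 10.4 ± 0.414 to 8.35 ± 0.662 RPKM (limma adjusted p = 0.0205, and from 0.052 to 0.074 without 4 of the single libraries). CAMTA1 was at 14.5 ± 0.985 and 12.4 ± 0.345 RPKM (adjusted p = 0.0502), and CAMTA3 at 40.9 ± 1.86 and 37.6 ± 1.79 RPKM (adjusted p = 0.194). All 3 were called lower after quantile normalization. The cullin genes CUL3A and CUL3B, scaffolds of the ligase that marks NPR proteins for degradation, were at 22.7 and 6.08 RPKM in NH4NO3 and 21.4 and 6.78 RPKM in Gln. Neither passed (adjusted p = 0.408 and 0.227).

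Of the 7 synthesis genes tested, 6 rose. ICS2, a second isochorismate synthase gene, was at 1.73 ± 0.241 RPKM in NH4NO3 and 1.19 ± 0.150 in Gln, with no overlap of the groups. Its difference of -0.31 ± 0.12 did not pass (limma adjusted p = 0.0677), but it was called lower with voom (adjusted p = 0.049) and in limma without the trend (adjusted p = 0.027). PBS3, which conjugates isochorismate, and ICS1 rose by 1.84 ± 0.15 and 1.06 ± 0.13. EDS5, the exporter of isochorismate from plastids, rose by 0.86 ± 0.08, and AT5G52810, annotated as a Rossmann-fold protein, by 0.90 ± 0.09. EDS5 overlaps AT4G39040, at a mean of 58.6 RPKM, over 213 bases. All 3 tested turnover genes rose. DLO1, a salicylate hydroxylase, went from 5.42 ± 0.835 to 21.3 ± 2.32 RPKM and its relative DMR6 from 24.7 ± 2.42 to 46.7 ± 4.25 RPKM. UGT74F2, a salicylate glucosyltransferase, rose by 0.31 ± 0.10 (limma adjusted p = 0.0264, but 0.052 to 0.119 under 6 alternatives). UGT74F1 was at 0.948 and 0.911 RPKM, and BSMT1 had no reads in any of the 6 libraries. For each library taken alone, the upper 95% bound on the expected number is about 3 reads.

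All 9 output genes rose. PR1, PR2, WRKY54 and WRKY38 rose by 5.24, 2.23, 1.76 and 1.01 on the log2 scale. Of 5 senescence markers, given because SAG101 was found in senescing leaves, 3 were tested and all rose. SAG13 went from 9.85 ± 1.26 to 21.9 ± 3.79 RPKM and NAP, a NAC factor, from 5.23 ± 0.647 to 10.3 ± 1.26 RPKM. ANAC092 went from 13.8 ± 0.352 to 18.4 ± 3.0 RPKM (limma adjusted p = 0.0212, and above 0.05 under 5 alternatives, up to 0.108). SAG12, the marker most tied to age-dependent senescence, had no reads in any of the 6 libraries. Its upper 95% bound is again about 3 expected reads for each library taken alone. SAG29 was below the filter, at 0.773 ± 0.103 RPKM in NH4NO3 and 0.234 ± 0.0525 in Gln. With no filter on low values it was called lower, with a difference of -0.52 (limma adjusted p = 0.0053).

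**Figure D4:**
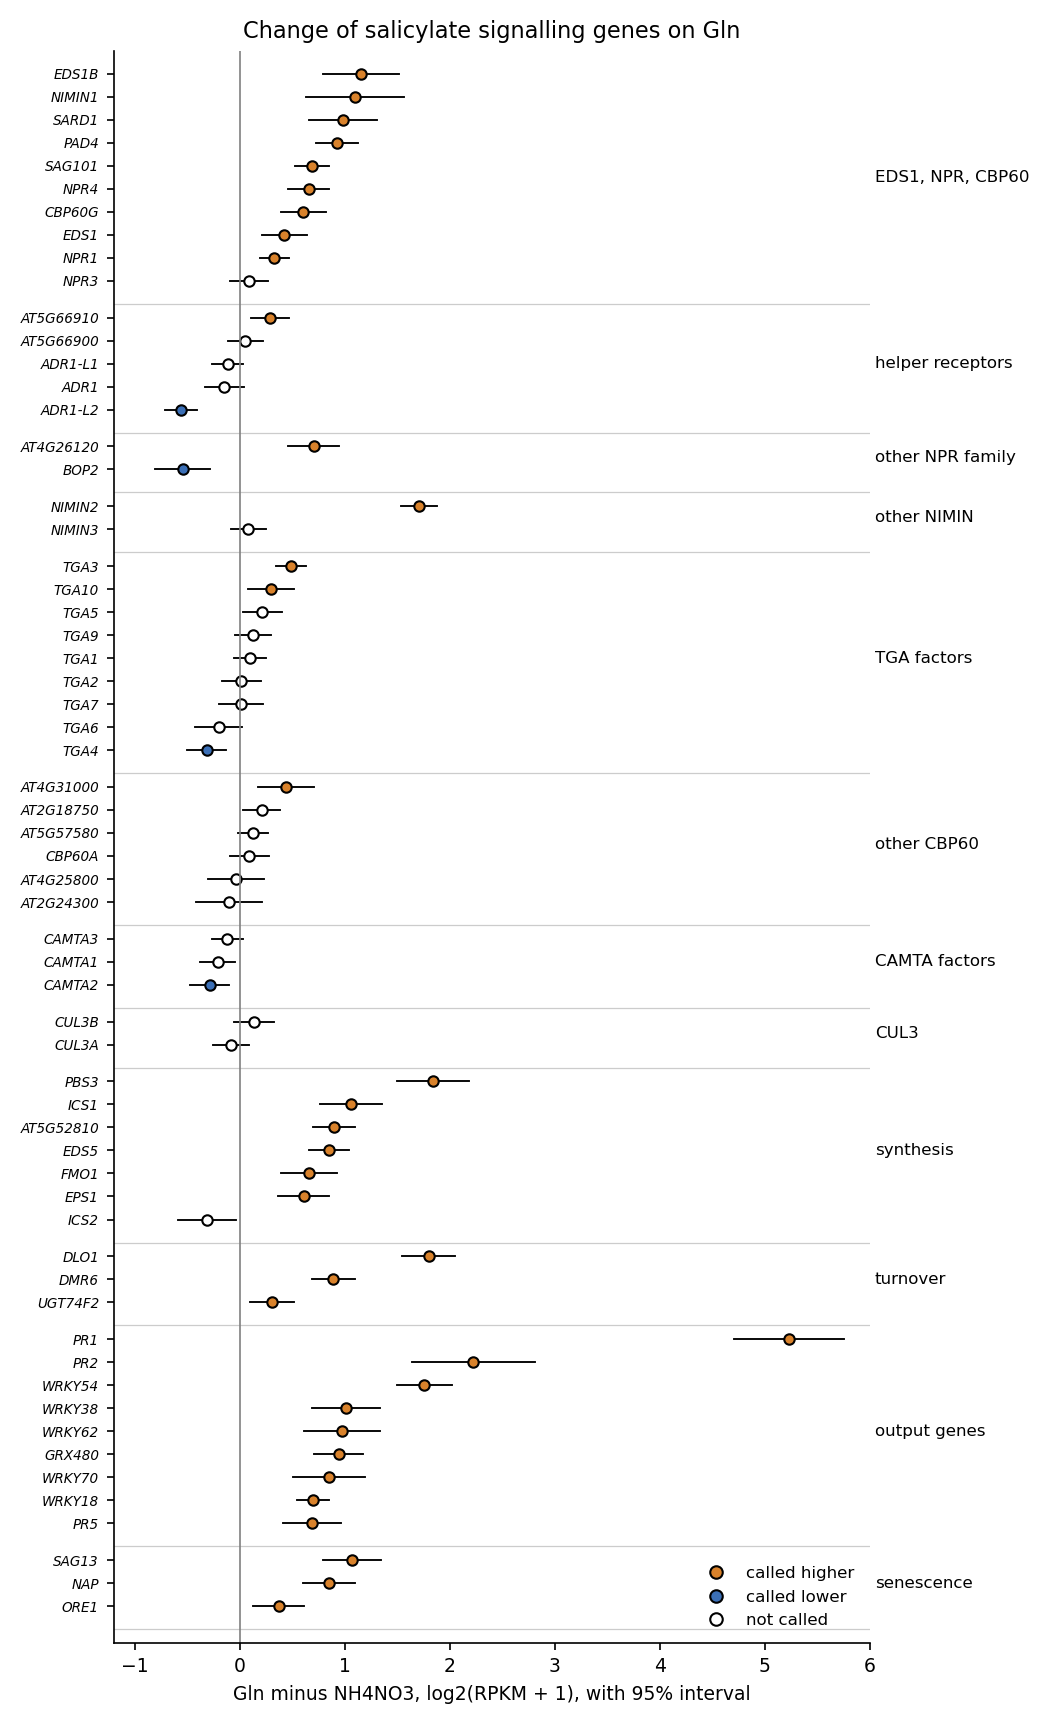
Difference between Gln and NH4NO3 on log2(RPKM + 1) with its 95% interval from limma, for the 10 genes and the tested genes of the 11 pathway lists. Filled points were called higher (orange) or lower (blue) and open points were not called; NPR3 is the only open point among the 10 genes.

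Markers of roots and shoots moved with the same comparison. Of 9 root markers tested, 8 rose and TIP2;3 fell, and the summed level of the 11 listed was 104 to 116 RPKM in NH4NO3 and 127 to 179 RPKM in Gln. PLT1 and WOX5, of the root tip, were below the filter in both groups, at means of 0.346 to 0.652 RPKM. Of 7 shoot markers, 5 fell and 2 did not pass. The summed level of the 7 was 34037 to 39225 RPKM in NH4NO3 and 28562 to 34195 RPKM in Gln, and these ranges overlapped. Most of that sum was LHCB1.3 and RBCS1A, the 2 that did not pass. Over the alternatives 5 to 8 root markers were higher and 0 to 1 lower, and 4 to 5 shoot markers were lower. Without NH4NO3 replicate 2 these were 7 root markers higher and 4 shoot markers lower. The call of CASP1 was lost under 8 alternatives, of RBCS3B under 3, of CASP4 under 2, and of PHO1 and TIP2;3 with no filter on low values, with adjusted p of 0.053 to 0.59. RBCS1A, not called here, was called higher after quantile normalization, with a difference of 0.24. The part of these marker levels in the changes of the 10 genes was not tested.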

How the data were processed

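Per the labels' protocols, total RNA of whole seedlings went into Illumina TruSeq libraries. The authors deposited 1 RPKM value per gene and library, with library sizes scaled by TMM per the file name, and a multi-read fraction per gene per the file headers. The submitters' processing notes name TAIR10 and SAMtools; aligner and read counter were not given in the sources used here. Multiplied by gene length, the values of a library are multiples of a single step after 0.5 reads are taken off; of the values of at most 20 reads, 98.1% to 98.8% lay within 0.05 of a whole number. These implied reads gave depth and voom weights only. Pairs of replicates differed by 7.19 to 17.0 times the counting variance of independent reads, so none is a copy.

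limma 3.58.1 in R 4.3.3 was fitted to log2(RPKM + 1) with a mean-variance trend, 2-sided. It was also run on simulated independent reads, with the same dispersion for every gene and few changed genes. Those settings differ from these data, so that run does not measure the error rate here. Ratios used exact permutation tests. Names and positions came from RefSeq TAIR10.1, which matched all 85 listed loci; chromosome sequences were read from the same build. EDS1 and EDS1B were aligned with Biopython 1.88. The members, lists and tests were chosen with earlier results of these data known. All 10 genes were named, as were lists of up to 5 genes and up to 4 called genes of longer lists. ICS2 and the root and shoot markers named fall outside this rule and were chosen after their values were seen. The closest profiles needed a mean of at least 5 RPKM. Alternatives were pseudocounts of 0.25 and 5, other filters, quantile normalization, voom, no trend, a replicate block and leaving out each library. Samples with equal replicate numbers did not deviate together, which does not show whether they were prepared as pairs.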

Additional observations from a re-analysis of the deposited data

How the results depend on the processing

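The count of 9 higher and 0 lower among the 10 genes was found under 12 of 14 alternatives. It was 8 with no filter on low values, where EDS1 missed the threshold, and 7 with a mean of at least 5 RPKM, where EDS1B and NIMIN1 were not tested. Of the 57 pathway loci, 22 to 28 were higher over all alternatives. The number lower was 7 after quantile normalization, which moves the median difference of all genes from -0.02 to -0.05, and 3 to 4 without single libraries. NPR3 had a difference of -0.01 after quantile normalization and was not called in any alternative. For EDS1B to EDS1 the difference was 0.22 with a pseudocount of 5 and 0.99 with 0.25. The 5 ratios kept their direction with pseudocounts of 0.25 and 5 and without each library, where the smallest possible p is 0.2. No other normalization was run for ratios, which lie within a library. With the replicate number as a block, 9 of the 10 genes, 26 pathway loci and 7274 genes in all were higher or, for the last, called, against 7942 without it. Deviations of samples with equal numbers correlated at -0.07, -0.10 and -0.01, and those with unequal numbers at -0.01 to 0.10. Equal numbers thus showed no shared deviation. Whether the samples were prepared in matched sets cannot be read from these correlations. Depth limits NIMIN1 most, at 8 to 77 reads.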
